A study of Mus musculus with 24 samples.

Results

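The untreated mouse colon is described here from the arrays labelled standard diet and control enema: 3 of the 12 Affymetrix 430A arrays and 3 of the 12 430B arrays of the series, or 6 of 24 arrays in all. They were chosen by that label alone, and no measured value entered the choice. The mice were BALB/c, an inbred strain, 6 to 8 weeks old. They ate the standard diet from 2 days before a control enema on day 0, and the whole colon was taken on day 7. Each RNA was a pool of 3 mice. Whether the 3 samples come from separate pools is not stated, so the spread between them may be technical. The other groups of the series, not described here, had a curcumin diet, an enema of trinitrobenzene sulfonic acid, which causes colitis, or both. Samples of the same number in the titles were taken as the same RNA on both array types, and 3 values given in a row are replicates 1, 2 and 3. There is no contrast within the group and hence no test, and with 3 arrays of a type the precision is limited by their number.

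The colon takes up water and salt, holds a dense population of bacteria behind mucus, and moves its contents with layers of smooth muscle. Its surface is a single sheet of absorptive colonocytes and mucus-making goblet cells that is renewed from crypts. A lamina propria with plasma cells, macrophages and fibroblasts lies beneath it, and muscle with an enteric nervous system surrounds it. Whole-organ RNA mixes all of these cells. A lower signal of a marker therefore cannot tell fewer cells of a type from less RNA per cell.

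Each value is a linear signal intensity, and every array had been brought to a trimmed mean near 500. A signal depends on the probe set, a group of short probes for 1 transcript, as well as on the amount of that transcript. The ranks below are therefore ranks of signals. There were 22626 probe sets on 430A and 22511 on 430B without the control probe sets, for 12384 and 9593 genes by symbol. A floor was placed under the signals with genes assumed to be foreign to the colon. These were genes of sperm, oocyte, eye, milk, tooth enamel, pituitary, heart, inner ear, hair and the chemosensory receptors. The 95th percentile of their signals on an array was taken as its background level. It stood at 235, 336 and 307 on 430A, from 217 probe sets, and at 628, 721 and 694 on 430B, from only 34 probe sets.

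On 430A, 9093 probe sets (40.2%) were above the level on all 3 arrays, and on 430B 4502 of 22511. Taken by gene, 5865 of 12384 genes on 430A and 2920 of 9593 on 430B were above it, and 8016 of all 18161 genes (44.1%) on at least 1 array type. A gene is called above background below in this sense, by its probe set with the highest mean, on 430A where it has one and on 430B otherwise. By that measure 7493 of the 18161 genes (41.3%) were above background. This share mixes array types that differed, with 47.4% of the genes on 430A and 30.4% of those on 430B. A list measured mostly on 430A is therefore better read against the 47.4%. Foreign genes with a high signal existed too. The hair keratin Krt81 read 473, 718 and 651 on 430A, and the oocyte gene Zar1 read 722, 826 and 933 on 430B. The olfactory receptor Olfr78 read 342, 343.7 and 327.1 on 430A, above the level on all 3 arrays. That these genes are foreign to the colon was assumed and not tested. The reverse also occurred: Rps16, a ribosomal protein that every cell needs, read 22.1, 32.5 and 38.2 on 430B, below the level on each array. A signal under the level is therefore no measure of a missing transcript.

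The arrays did not stand equally close to each other. Over all 430A probe sets, the correlation of log2 signals across probe sets was 0.972 between replicates 2 and 3, and 0.927 and 0.931 between replicate 1 and each of them. On 430B the 3 pairs gave 0.931 to 0.933. The first principal component of all 12 430A arrays of the series, with 32.0% of the variance, parted them into sets of 6 and 6, with no array in between. Replicate 1 fell on one side with 5 arrays of other groups, and replicates 2 and 3 on the other side with 4. The submitters' labels name no batch for these sides. Replicate 1 was also the one in which most genes of the exocrine pancreas were below the level, while they were among the strongest signals of replicates 2 and 3. Results that rest on replicate 1 are given below by array.

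The highest signals of 430A belonged to proteins of the mucus and the epithelial surface beside the translation machinery. First was Zg16, a goblet cell lectin that binds Gram-positive bacteria, at 17986, 19265 and 17374, a mean of 18208 with a coefficient of variation (CV) of 5.30%. Eef1a1, which brings aminoacyl-tRNA to the ribosome, had the same mean to within 1 unit at 19544, 17833 and 17247. The ranges of both genes overlapped, so their order has no weight. Tpt1, a growth-related protein with a translationally controlled mRNA, followed at 19531, 17337 and 16915. Lypd8, a colonocyte protein that keeps flagellated bacteria off the epithelium, gave 17349, 17967 and 16406. Ceacam1, an adhesion molecule of the epithelial surface, read 18518, 16832 and 13462 and differed more between arrays, with a CV of 15.8%. It was lowest in replicate 3.

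Lgals4, a galectin of the gut epithelium, read 16882, 16407 and 15467, and Actb, cytoplasmic actin, 16877, 15052 and 14292. Car1, a carbonic anhydrase of the colonocyte, gave 16728, 15208 and 12310.2 and was lowest in replicate 3, as Ceacam1 was. ND5, a subunit of respiratory complex I encoded in the mitochondrial genome, stood at 17630.0, 11816 and 14549. Igha, the heavy chain of IgA, read 16672, 13760.1 and 13548, which put an immune transcript of plasma cells among the 10 genes with the highest signals. The next 5 genes were Clca1, a protease of the mucus, at 13481, 15353 and 14004, the ferritin heavy chain Fth1, the scavenger receptor Dmbt1, the cytochrome P450 Cyp2c55 and the mitochondrial phosphate carrier Slc25a3. Their means ran from 14279 down to 13096. Fth1 had the widest spread of these at 17624, 12115 and 12014, with replicate 1 clearly above the others. This gene was parted by the sides of the 430A arrays, with 14187 to 20413 in the other arrays on the side of replicate 1 and 12116 to 13153 on the other side. Ranks 16 to 25 went to Rpl41, Fcgbp, Krt8, Uqcrb, Klk1, Rps29, Atp5g3, Pigr, Tff3 and Slc25a5. In this group Rpl41 varied most at 15719, 10084 and 12911, and Rps29 least at 12561, 12496 and 11806, a CV of 3.41%. All 25 genes were above background on every array.

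On 430B one gene stood far above the rest of those with a single symbol. Muc2, the gel-forming mucin of goblet cells, read 64969, 84473 and 91883, a mean of 80442 with a CV of 17.3%. The next named gene, the splicing factor Sf1, had a mean of 29522 and was 7th among all probe sets, and the 5 probe sets between them have no single gene symbol. Then came Slc26a3, the chloride-bicarbonate exchanger of the colonocyte, at 27655, 25720.4 and 28089, the ribosomal protein Rpl22 at 23156, 25365 and 30346, and Golm1, a Golgi membrane protein, at 23293, 25064 and 27560.0. Gfpt1, the entry enzyme of the hexosamine pathway that supplies sugars for glycoproteins, read 21875, 23010.3 and 20854. Clca4a, a CLCA family member of enterocytes, gave 25665, 20645 and 17629.6 and was lowest in replicate 3. Ranks 8 to 15 were held by the cadherin Fat1, the lysosomal precursor Psap, the predicted gene Gm1123, the calcium-activated chloride channel Ano1, the complex III subunit Uqcrh, the sulphate transporter Slc26a2, the MYC-network repressor Mxd1 and the co-chaperone Dnaja2. Their means fell from 19797 to 13738. Of the 40 genes named from both array types, Muc2 alone had a mean over 2 times that of the next gene of its type.

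**Figure D1:**
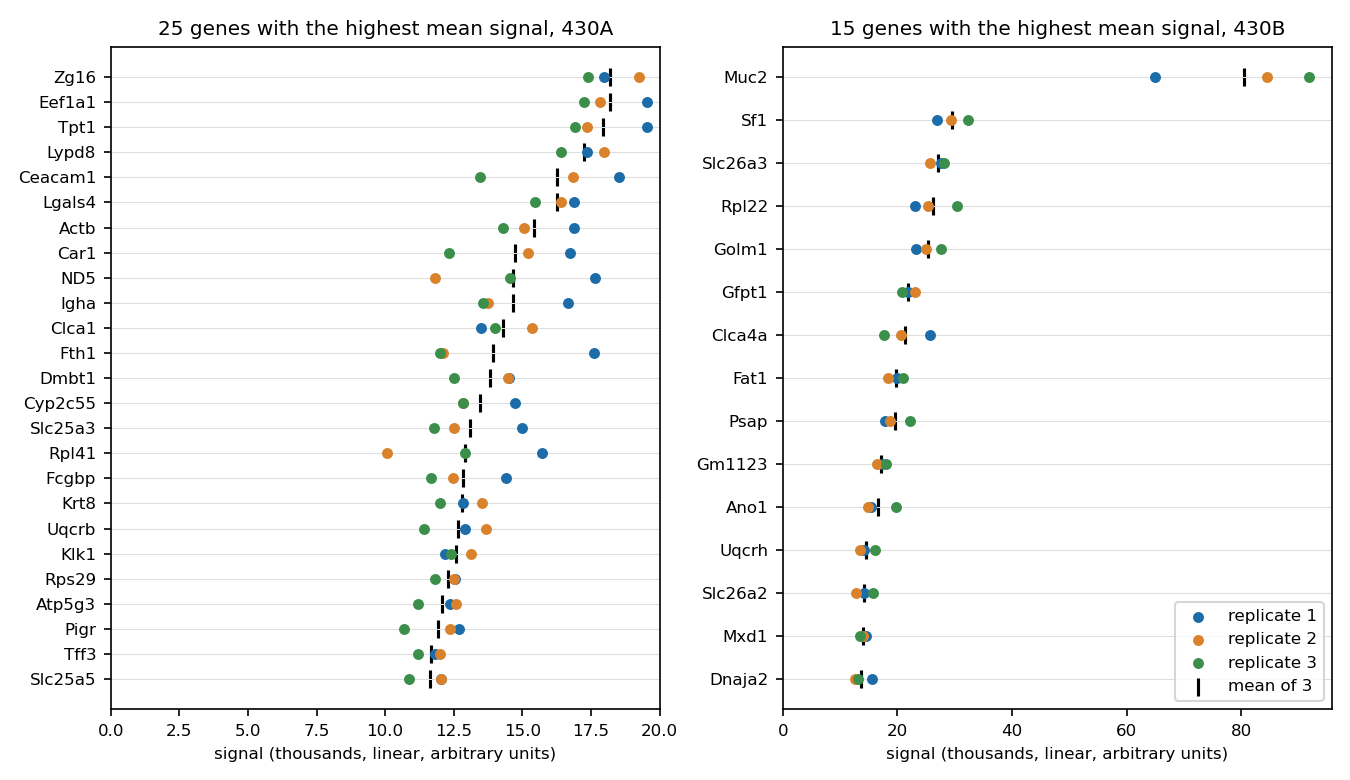
Signal, divided by 1000 (linear axis from 0), of the 25 genes with the highest mean on 430A (left) and the 15 on 430B (right), with 1 point per replicate and a bar at the mean. The 3 points of most genes lie close together, Muc2 lies alone at 64968 to 91883, and the 2 array types are not on a common scale.

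The signal was spread over many probe sets. The 100 highest took 8.94%, 8.94% and 8.20% of the summed signal on 430A and 9.86%, 10.0% and 10.6% on 430B. The 1000 highest took 36.9% to 38.0% on 430A and 33.8% to 34.8% on 430B. Of the 100 highest, 34 on 430A and 12 on 430B had no single gene symbol and are not named. Cytosolic ribosomal proteins with a probe set of their own numbered 43. Of these 36 were above background, 34 lay above the 90th percentile of signals, and the median percentile was 99.1.

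The letters before the transcription starts of the highest genes are shown next, to set tissue-restricted and general genes side by side. Printed are the 60 bases upstream of each RefSeq start (GRCm38.p6, 5′ to 3′ on the strand of the gene) for the 5 highest genes of each array type that the RefSeq table holds, which leaves out Zg16. Lypd8 and Rpl22 have 2 starts each. Capitals mark every TATA, the core of the box that positions transcription, at any distance.
Eef1a1 (chr9:78481725-78481784, minus strand): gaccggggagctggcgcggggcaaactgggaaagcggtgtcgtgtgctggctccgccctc
Tpt1 (chr14:75845196-75845255, plus strand): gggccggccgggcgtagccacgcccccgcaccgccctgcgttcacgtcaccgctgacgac
Lypd8, start 1 (chr11:58378972-58379031, plus strand): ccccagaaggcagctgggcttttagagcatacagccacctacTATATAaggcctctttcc
Lypd8, start 2 (chr11:58380586-58380645, plus strand): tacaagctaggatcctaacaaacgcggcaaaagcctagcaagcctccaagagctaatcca
Ceacam1 (chr7:25477626-25477685, minus strand): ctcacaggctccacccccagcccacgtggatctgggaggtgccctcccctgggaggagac
Lgals4 (chr7:28833734-28833793, plus strand): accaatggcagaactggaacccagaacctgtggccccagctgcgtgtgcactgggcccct
Muc2 (chr7:141690280-141690339, plus strand): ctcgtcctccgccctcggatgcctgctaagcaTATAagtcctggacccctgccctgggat
Sf1 (chr19:6363630-6363689, plus strand): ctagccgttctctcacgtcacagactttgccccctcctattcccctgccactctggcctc
Slc26a3 (chr12:31438159-31438218, plus strand): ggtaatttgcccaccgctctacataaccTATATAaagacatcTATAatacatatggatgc
Rpl22, start 1 (chr4:152325666-152325725, plus strand): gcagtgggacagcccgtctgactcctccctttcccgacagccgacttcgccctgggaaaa
Rpl22, start 2 (chr4:152324376-152324435, plus strand): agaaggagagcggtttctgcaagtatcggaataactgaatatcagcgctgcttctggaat
Golm1 (chr13:59675785-59675844, minus strand): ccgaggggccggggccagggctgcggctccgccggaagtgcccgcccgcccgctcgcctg

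TATA began 45 to 20 bases before the start, on the gene's own strand, in 2175 of 32851 RefSeq promoters (6.62%). In the goblet and secretory list it was found in 7 of 14 promoters, which cover 13 of the 22 genes of the list. In the absorptive colonocyte list it was 4 of 26 promoters, in the ribosomal proteins 6 of 67 and in smooth muscle genes 1 of 15. Of the 12 printed promoters 2 held it, those of Muc2 and Slc26a3, at 28 bases and at 32 and 30 bases before the start. The capitals of Lypd8, at 18 and 16 bases, and the last ones of Slc26a3, at 18 bases, lie outside the window and were not counted. The other motifs were the longer box TATAAA, sought in the same window, and 4 motifs sought on both strands of the whole 300 bases. TTTATG, a core of CDX sites, was present in 4 of the 14 goblet promoters, 5 of the 26 absorptive promoters and 11.9% of all promoters. TATAAA, which contains TATA, was present in 2 of the goblet promoters and 2.14% of all. CAAAGTCCA, a form of the HNF4 site, was present in 1 of them and 0.475% of all. The E-box CACGTG was present in 0 of the goblet promoters, 3 of the absorptive promoters and 7.15% of all. The motif TTTTCCGG was found in 0 of the goblet promoters, 2 of the ribosomal promoters and 0.712% of all. A match describes the letters and is not a binding site.

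Markers of absorptive colonocytes lay almost wholly at the top of the signals. All 25 measured genes of a list of 27 were above background, 22 of them above the 90th percentile, with a median percentile of 98.8 against 57.6 over all genes. Beside Lypd8, Ceacam1, Car1 and Cyp2c55 the list held Krt8, the simple-epithelial keratin, at 12824, 13546 and 12004. Carbonic anhydrase Car2 read 11844, 11484 and 10786, and Guca2a, the precursor of guanylin that drives fluid secretion, read 10928, 11212 and 9471. Further down stood the membrane-bound carbonic anhydrase Car4 at 4164, 4951 and 4600.0, the water channel Aqp8 at 4375, 3912 and 3314 and the brush-border protein Vil1 at 3654, 3198 and 2982. The lowest signals of the list were those of Guca2b at 622, 493 and 438 and Prap1 at 295, 368 and 309. The bile acid exporter subunit Slc51a differed between arrays at 1920.4, 1637 and 956, lowest in replicate 3. The summed signal of the 24 members on 430A was 187794, 177714 and 159123.

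Goblet and secretory markers were as high. Of 22 genes, 19 were above background and 17 were above the 90th percentile, with a median percentile of 99.2. Beside Muc2, Zg16 and Clca1 the list held Fcgbp, a mucus protein that binds to the mucin network, at 14388, 12474 and 11676, and the kallikrein Klk1 at 12182, 13126 and 12403. Tff3, the trefoil peptide secreted with mucin, read 11828, 12003 and 11184, and Agr2, a disulphide isomerase needed for mucin assembly, 9838, 9579 and 9206. Muc13, a membrane mucin also made by colonocytes, gave 14061, 10073 and 8748, with replicate 1 highest. The transcription factors of the lineage had lower signals: Atoh1, which sets the secretory fate, read 3792, 3159 and 2875, and Spdef, which acts in goblet maturation, 1285, 1109.9 and 1123. Itln1, an intelectin that binds microbial sugars, was above background on replicates 1 and 3 only, at 999, 218 and 420.2. Muc1 at 319, 279 and 287 and Muc4 at 271, 126 and 221 were not above background on all arrays either. Among all 10 mucin genes with a probe set, Muc2, Muc13, Muc3 and Muc20 were above background. Muc3, a brush-border mucin, read 10876, 11309.7 and 10468, while Muc5ac and Muc5b, gel-forming mucins of stomach and airway, were below the level. Muc5ac read 46.4, 14.5 and 49.5, and Muc5b 28.6, 50.5 and 44.6.

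Genes of microbial defence ranged from the highest signals to the background. Of 24 measured genes 13 were above background and 10 above the 90th percentile. Pigr, which carries IgA across the epithelium, read 12677, 12375 and 10673, and Jchain, which joins IgA into dimers, 8594, 9709.6 and 10519. Saa1, a serum amyloid made by colonocytes, gave 8395, 8089 and 7752, Ang4, an antimicrobial ribonuclease, 11524, 6173 and 7151 on 430B, and the lectin Reg3b 4167, 5885 and 2852. Retnlb, a resistin-like protein of goblet cells, stood at 2774, 1908 and 2053. At the other end were genes known from neutrophils and inflamed epithelium. Lcn2, which withholds iron from bacteria, read 56.9, 114 and 72.8, S100a8 18.5, 39.5 and 114, S100a9 5.9, 42.7 and 54.1, and Nos2, the inducible nitric oxide synthase, 10.5, 15.4 and 31.7. None of these 4 was above background on any array.

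Genes of chloride, bicarbonate and sodium-proton exchange had high signals. Of 23 measured genes 18 were above background, and the median percentile was 87.4. Of the sodium-proton exchangers measured on 430B, Slc9a2 read 6577, 6256 and 6191 and Slc9a3 read 5095, 5559 and 7107. Slc26a3 on 430A read 6879, 5022 and 6322, and the basolateral cotransporter Slc12a2, which loads cells with chloride, 4863, 4005 and 4674. The chloride channel Cftr gave 1559.7, 1229 and 1248. Best2, a bicarbonate channel of colonic goblet cells, read 825, 752 and 1021. Ano1 gave 716, 543 and 751 with its 430A probe set and 15372, 14932 and 19726 with its 430B probe set, 2 values that differ in the scale of the array type as well as in the probes.

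Of 23 measured sodium and potassium channels and pumps 17 were above background. Atp1b1, the beta subunit of the sodium pump, read 10548, 8657 and 8164, and the potassium channel Kcnk6 7536, 6836 and 7436 on 430B. The aldosterone pathway was represented by its receptor Nr3c2 at 3935, 3390.1 and 3964 on 430B, by Hsd11b2, which protects that receptor from glucocorticoid, at 2344, 2252 and 3004, and by the kinase Sgk1 at 1742, 2291 and 2724. The subunits of the epithelial sodium channel differed. Scnn1a read 745, 884 and 919.9, above background on all arrays. Scnn1b read 214, 278 and 356, above on replicate 3 only, and Scnn1g read 22.3, 17.1 and 24.6, above on none. Atp12a, the colonic proton-potassium pump, gave 1067, 856 and 1340.0.

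Of 10 water channels 4 were above background: Aqp8, Aqp11 at 2434, 2406 and 2462 on 430B, Aqp4 at 2376, 1875 and 2306 and the endothelial channel Aqp1 at 1605, 1024 and 1080.4. Aqp3 read 51, 168 and 189 and was above background on none of the arrays.

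Of 41 measured nutrient transporters 26 were above background, and 7 lay above the 90th percentile. The highest was Slc6a14, a sodium- and chloride-driven amino acid transporter, at 5100.4, 4719.9 and 4841, followed by the phosphate transporter Slc20a1 at 3543, 2403 and 2715. Slc16a1, which carries lactate and butyrate, read 3006, 2899 and 2091, and Slc5a8, a sodium-coupled carrier of short-chain fatty acids, 1089.6, 960.1 and 1179. The glucose transporter Slc5a1 and the peptide transporter Slc15a1, better known from the small intestine, were above background as well. Slc5a1 read 1385, 1198 and 1146, and Slc15a1 575, 605 and 745. Slc37a2, a sugar-phosphate exchanger, read 1820.3, 1375 and 647, and its value in replicate 3 lay below that of both others by over 2-fold.

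Metal carriers were above background for 18 of 23 measured genes. Atp2b1, a plasma membrane calcium pump, read 8254, 7343 and 5715 on 430B, the zinc transporter Slc39a5 3412, 3296 and 2985, and the iron exporter Slc40a1 2986, 3009.7 and 2724. S100g, the calcium-binding protein calbindin-D9k, gave 1641, 1469.5 and 402, and the manganese exporter Slc30a10 2653, 2201 and 910.1 on 430B. Both were lower in replicate 3 than in either other replicate by over 2-fold. Trpm6, the magnesium channel of the colon, was also lowest in replicate 3, by less than 2-fold against replicate 2, at 4779, 4136 and 2373 on 430B. Its 430A probe set read 396, 428 and 319. Among carriers of bile acids and drugs 14 of 24 were above background. The efflux pump Abcb1a read 5235, 4929 and 4588, Abcc3 2109.8, 1676 and 1389.6 and Abcg2 1695, 1357 and 1094, while the ileal bile acid transporter Slc10a2 read 84.1, 303 and 233 and was above background on none. Over whole families, 139 of 320 solute carrier genes (43.4%), 2 of 15 organic anion carriers and 21 of 45 ABC transporters (46.7%) were above background. The shares of the solute carriers and the ABC transporters lie near the 41.3% of all genes and the 47.4% of genes on 430A. That of the organic anion carriers lies below both. The solute carrier family by symbol includes the scaffold Slc9a3r1.

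Junction genes were above background for 21 of 23 measured members, with a median percentile of 91.6. Epcam, an adhesion molecule of all epithelia, read 10328, 8788 and 9425, Cldn7 7999, 7268 and 6599 and Cldn3 7368, 6594 and 5314. Cdh17, the cadherin of the intestine, gave 4552, 4131 and 4018, and the classical cadherin Cdh1 2372, 3303 and 3546. Of 24 claudins 8 were above background: Cldn7, Cldn3, Cldn12, Cldn2, Cldn15, Cldn23, Cldn8 and Cldn4. Cldn8, which seals against sodium, read 1280.0, 1206 and 757, and Cldn4 1192, 1082 and 709. Both were lowest in replicate 3. Cldn1 read 188, 109 and 127, and Cldn18, a claudin of stomach and lung, 95, 59 and 77.2. Of 48 keratins 8 were above background, with the highest percentiles for Krt8, Krt19, Krt20, Krt42 and Krt18, of which Krt8, Krt18 and Krt19 are keratins of simple epithelia. Krt20, which marks the surface, read 6542, 5639.8 and 5219.9. The other members above background were Krt7, Krt81 and Krt32, and hair keratins are among the genes from which the level was set.

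The rarer epithelial types gave a mixed picture. Of 22 enteroendocrine genes 13 were above background, with a median percentile of 61.1. The granule protein Chgb read 2864, 2253 and 2266. Among hormones, Gcg, whose product includes GLP-1, read 1499, 2156 and 2199, Pyy 1776, 1797 and 1992, Insl5, a hormone of distal L cells, 1479.9, 923 and 1394, Nts 844, 836 and 543 and Sst 699, 630.1 and 523. Hormones of the upper intestine, Cck at 37.7, 81 and 46 and Gip at 26, 43.6 and 39.9, were above background on no array. Tph1, the serotonin enzyme of enterochromaffin cells, read 378, 358 and 315. Of 11 measured tuft genes only Plcg2, Alox5ap and Dclk1 were above background. Dclk1, often used as the tuft marker, read 309.6, 359 and 317 on 430A, close to the level, and the tuft channel Trpm5 read 156, 122 and 142.

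Crypt and proliferation markers were above background for 10 of 16 measured genes. Lgr5, the stem cell receptor, read 395, 366 and 348, Axin2, a target of Wnt signalling, 589.7, 589 and 521, and Prom1 4966, 4882 and 4167. The signals of Lgr5 were not far above the level. Olfm4, a stem cell marker of the small intestine, read 90.1, 169 and 29.7 on 430B, below the level on all arrays. Ascl2 at 71.7, 243.5 and 286.6 and Rnf43 at 107.8, 95.8 and 128.5, also of this list, were above background on no array either. The proliferation marker Mki67 gave 872, 877 and 399, Top2a, the topoisomerase of dividing cells, 776, 633 and 401, and the replication clamp Pcna 3169, 2742 and 2013. All 3 were lowest in replicate 3. Of 6 measured Paneth cell genes 4 were above background, though Ang4, Lyz1 and Pla2g2a are also made by other cells of the colon. The other gene above background was Mmp7 at 382, 676 and 496. The defensin Defa3 read 60.5, 67.4 and 7.1.

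Genes of muscle and stroma had high signals, in a sample of the whole colon wall. Smooth muscle genes were above background for 16 of 18 members, with a median percentile of 96.9. Acta2, smooth muscle actin, read 10694, 11134 and 9959.7, Tagln 7071, 5789 and 6372, the enteric actin Actg2 5217, 5727 and 5443 and the myosin heavy chain Myh11 3593, 3158 and 3109. Des, desmin, was highest in replicate 1 at 2172, 1144 and 1185. Kit, the receptor of the interstitial cells of Cajal that pace the muscle, read 1139, 1529 and 1466. Of 14 fibroblast and matrix genes 12 were above background, with the collagen Col3a1 highest at 6864, 6151 and 7329.7, then the proteoglycan Dcn at 5741, 4881 and 5246 and the collagen Col1a2 at 5167, 4422 and 4811. Adipocyte genes were above background for 9 of 13 measured members. The fat carbonic anhydrase Car3 read 7255, 6853 and 6561, the fatty acid carrier Fabp4 3220.2, 4553 and 4359 and the hormone Adipoq 3292, 2369 and 2378. Lep, leptin, read 109, 32.8 and 29.5 and Ucp1, the heat-producing carrier of brown fat, 13.8, 21.7 and 14.7, on no array above background.

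Nerve and vessel markers had lower signals. Of 19 measured enteric neuron genes 4 were above background: Vip, the relaxing neuropeptide, at 941, 1609 and 1502, Gal at 415, 829 and 542, Stmn2 at 462, 505 and 429 and Nos1, the neuronal nitric oxide synthase, at 399, 513 and 421. Counting either array type, 7 genes were, and Nos1 read 1755, 2904 and 1760.2 on 430B. Of pan-neuronal genes, Elavl4 read 256, 196 and 217, and Tubb3 39.7, 10.4 and 11.6. Of 6 measured glial genes Erbb3 and Sox10 were above background. Erbb3, which epithelium also makes, read 3877, 2853 and 2652, Sox10 327, 576 and 592, and the glial filament Gfap 185, 277 and 173. Of 11 endothelial genes, all measured on 430A, 5 were above background, a share near the 47.4% of all genes on 430A. Flt4 was highest at 476, 462 and 678, and Pecam1 read 315, 284 and 293.

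Among immune cells, most listed genes of B and plasma cells and of macrophages were above background, and most of those of T cells and granulocytes were not. Of 11 measured B and plasma cell genes, a list that includes the epithelial carrier Pigr, 9 were above background. After Igha and Jchain, Mzb1, a chaperone for antibody secretion, read 3487, 3251 and 3586 on 430B, while the B cell surface gene Ms4a1 read 473, 352 and 449. The other members of this list were Tnfrsf17 at 133, 82.3 and 125.6, above on no array, and Cd79b at 267.6, 215.6 and 167.7, above in replicate 1 alone, among those not above background. Of 18 macrophage and dendritic cell genes 13 were above background. The class II chain H2-Aa read 4531, 3355 and 4530.3, the invariant chain Cd74 4102, 3878 and 4385, Lyz2 3184, 2499.5 and 2689 and the receptor Csf1r 2097, 1844 and 2187. None of 13 measured T and NK cell genes, 10 neutrophil genes and 8 mast cell genes was above background on all 3 arrays by its 430A probe set. Cd3e, a chain of the T cell receptor complex, read 28.9, 149 and 354, above the level in replicate 3 alone, and Mcpt1, a mucosal mast cell protease, 56.3, 86.8 and 87.3. On 430A, Cd8a read 12.1, 319.8 and 340.4, above the level in replicate 3 alone. On 430B, Cd8a was above the level at 829, 1049 and 929.6. It was the only gene of these lists to be above on either array type. The neutrophil genes had a median percentile of 26.9 and a summed signal of 1238, 1368 and 1272.

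Markers of neighbouring and distant organs were mostly low. Of 21 measured small intestine genes 6 were above background, among them the meprins Mep1a at 5475, 3121 and 3988 and Mep1b at 2313, 1934 and 1721, and Alpi, the intestinal phosphatase, at 3606, 3457 and 3644 on 430B. Genes that the small intestine makes in large amounts were below the level on every array: Fabp1, a fatty acid carrier, read 50.4, 24.3 and 120.3, the apolipoprotein Apoa4 30.4, 65.1 and 68.8, while lactase, Lct, read 72.4, 83.4 and 111. Of 12 measured stomach genes Tff1 at 2637, 2605 and 2588 and Gkn3 at 1422, 1374 and 1249 on 430B were above background. Of 13 liver genes Cyp2e1 at 2054, 2102 and 2230.0, Ttr and Tat were above background, and albumin, Alb, read 265, 171 and 256. Of 15 squamous genes Sprr1a and Lor, and of 14 skeletal muscle genes Eno3 and Ckm, were above background. Sprr1a, a cornified envelope protein that columnar epithelium can also make, read 1618, 1245 and 501. Seminal vesicle and urothelial genes were above background for 2 of 8 measured members, Upk1b and Upk1a, and the seminal vesicle gene Svs4 read 8.2, 9.6 and 7.3. The list of the exocrine pancreas, which differed between replicates, is described with the spread.

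**Figure D2:**
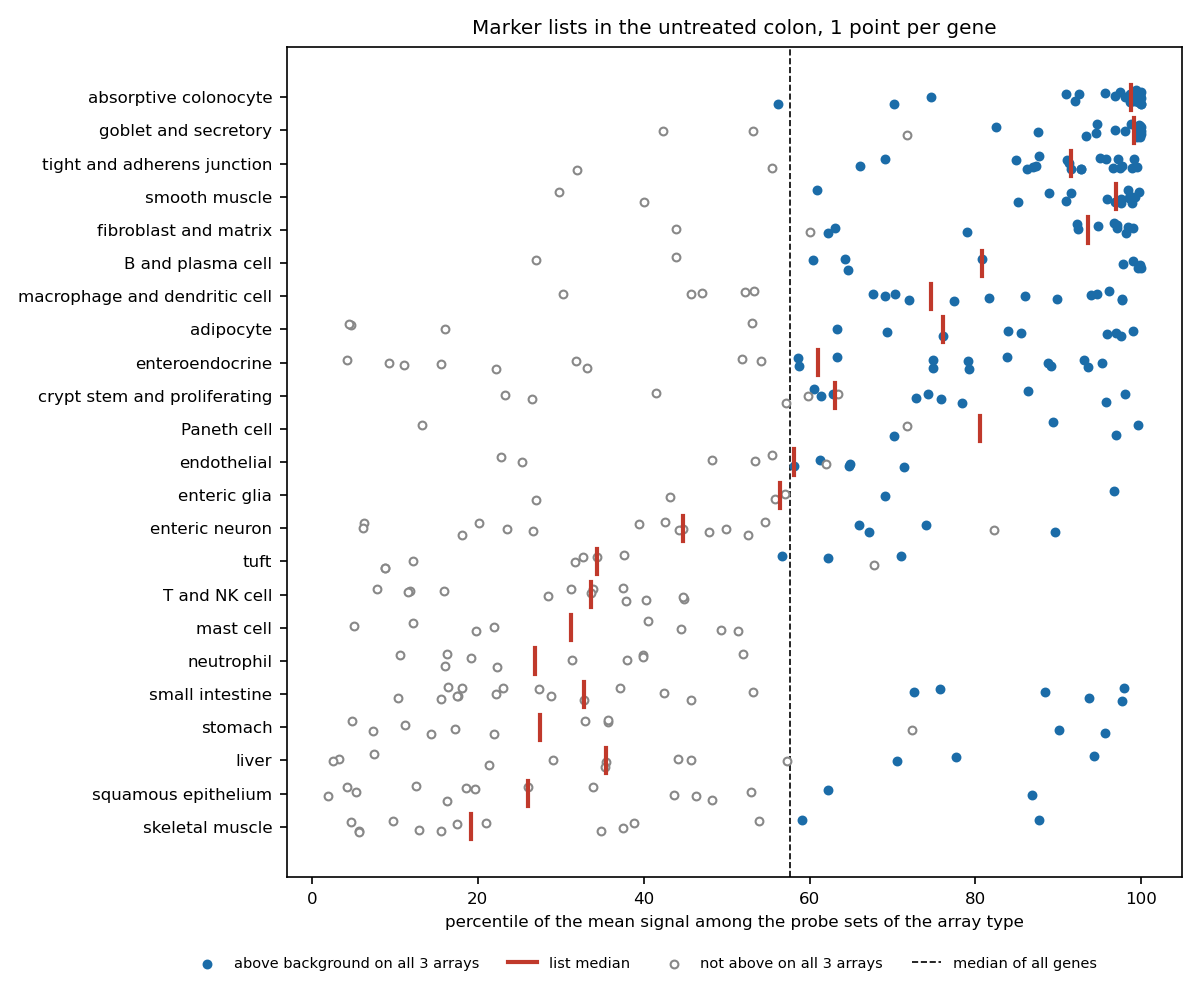
Percentile (0 to 100) of each gene's mean signal among the probe sets of its array type (horizontal axis), for 23 marker lists (rows) with 1 point per gene, filled where the gene was above background on all 3 arrays. Absorptive, goblet, junction, smooth muscle and matrix lists have medians over 90, and the T cell, mast cell and neutrophil lists hold no filled point.

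Genes of position comprised the HOX genes, transcription factors whose paralogue number follows the body axis, and genes with a known place in the colon. Of 33 HOX genes 6 were above background by the rule above and 9 on either array type. The posterior Hoxb13 was highest on 430A at 1156, 651 and 1096, followed by Hoxa9 at 814, 723 and 747 and Hoxb9 at 626, 717 and 586. Hoxb2 read 499, 551 and 465, Hoxa11 490.2, 505 and 411 and Hoxb6 409, 543 and 364. On 430B, Hoxd13 read 1231, 903 and 2047, Hoxb3 1100.4, 908 and 938 and Hoxa5 704, 739 and 1007. Hoxd13 was highest in replicate 3, and its 430A probe set read only 90.8, 43.2 and 139.8. No HOXC gene was above background, with Hoxc6 highest at a mean of 273. Of the caudal-type factors of intestinal identity, Cdx2 read 1915, 2274 and 1856, and Cdx1 1148, 1363 and 1613. Further genes known to vary along the colon also gave clear signals. Mptx1 gave 6180.2, 4979 and 5031, the oxidase Hao2 4745, 4300.2 and 4662 and Wfdc2 1984, 1714 and 2079. Of the 26 measured position genes 17 were above background.

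**Figure D3:**
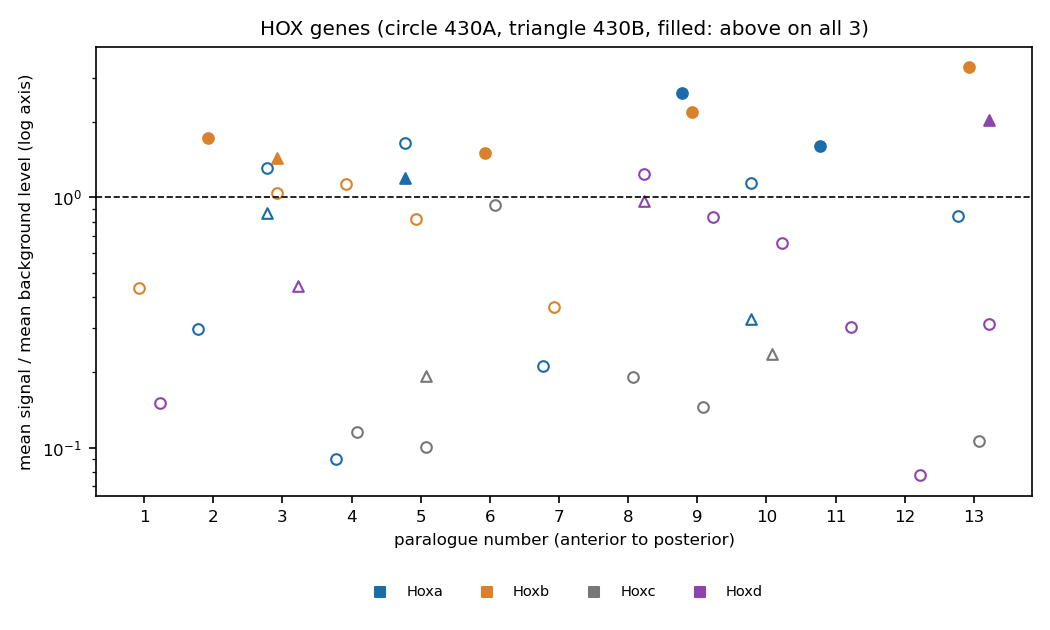
Mean signal divided by the mean background level of the array type (log axis) against the paralogue number of each HOX gene, with colour for the cluster, circles for 430A and triangles for 430B. Filled symbols, above the level on all 3 arrays, belong to the A, B and D clusters, and the HOXC symbols all lie below the dashed line at 1.

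Sex-linked genes of both kinds gave signals: Xist, made from the inactive X chromosome, read 319, 451 and 478, the Y-linked Kdm5d read 513, 428 and 453, and the Y-linked Eif2s3y 376, 372 and 487. All 3 were above background on each array, though not far from the level, and the Y-linked Uty read 418, 342 and 282. The labels used here give no sex. Immediate early genes, which tissue handling can induce within minutes, were above background for 10 of 15 genes, led by Fos at 2772, 1815 and 2311 and Zfp36 at 1547, 1569.9 and 1344.

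Most probe sets above background on all 3 arrays differed little between replicates. That rule leaves out probe sets that fell under the level on any array. Among those above background, the median SD of log2(signal + 16) over the 3 arrays was 0.18 on 430A and 0.14 on 430B, and the median CV was 12.6% and 9.88%. A CV under 25% was found for 88.3% of them on 430A and 96.0% on 430B. The highest signal was over 2 times the lowest for 267 of the 9093 (2.94%) and 45 of the 4502 (1.00%). Without replicate 1, 9405 probe sets of 430A were above background and their median SD was 0.10, over 2 arrays. The median distance between replicates 2 and 3 of 430A was 0.14 on the log2 scale, and 0.24 between replicate 1 and either. By comparison, probe sets of the same gene differed more than arrays did. In 1689 genes with several probe sets above background on 430A the highest mean was 1.72 times the lowest in the median, and on 430B 1.73 times in 532 genes. With all probe sets the factor was 3.14 and 4.05.

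The steadiest high signals on 430A were those of housekeeping genes. Rpl27, a ribosomal protein, read 6993, 7026 and 7000.2, a CV of 0.248%, and Atp5b, the catalytic beta subunit of ATP synthase, 7994, 8029.9 and 8046. Ssr3, of the translocon at the endoplasmic reticulum, read 3383, 3356 and 3375, and Atp5g2 3736, 3765 and 3728. Prelid1, Cct5, B4galt1 and Os9 completed the 8 with the smallest SD among genes over the 90th percentile. These genes were selected for a small SD, and the other 9 430A arrays of the series ranged from 6161 to 8601 for Rpl27.

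The widest spread belonged to genes of the exocrine pancreas. Each of the 18 measured genes of the acinar list was lowest in replicate 1 and highest in replicate 2. Cpa1, carboxypeptidase A1, read 6.3, 12597 and 9486, and Cpb1, its B1 relative, 8.9, 11109.6 and 7964. The chymotrypsinogen Ctrb1 read 113, 18722 and 13152, the elastase Cela3b 66.2, 15649.7 and 14055, trypsinogen Prss2 165, 16509 and 12559 and the lipase-related Pnliprp1 20.1, 6264 and 4799. In replicate 2 the signal of Ctrb1 lay between those of Zg16 and Eef1a1, while in replicate 1 it was below background. The median percentile of the list was 28.4 in replicate 1, 99.6 in replicate 2 and 99.2 in replicate 3. The summed signal was 10897, 191527 and 135158.

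Only 3 of the 18 were above background in all replicates: Clps at 439.5, 13025 and 8051, Cela1 at 2094, 12957 and 10544 and Sycn at 6965, 9763 and 7994. Sycn, syncollin of secretory granules, was thus high in replicate 1 too, at the 99th percentile of that array. Of the 38 probe sets of 430A with an SD over 2, 24 belonged to the acinar and islet lists. Others of the largest spread had the same order of arrays: 2210010C04Rik at 13.7, 12788 and 10668, Reg2 at 114, 2529 and 1242 and the secretory phospholipase Pla2g1b at 86.7, 1707 and 1075. They were chosen after their values were seen, as they are not on the list. On 430B, Pdia2, a disulphide isomerase of the pancreas, read 236, 5073 and 3252 and the aquaporin Aqp12 114, 1989 and 1041, with the same replicates lowest and highest as on 430A. The 3 measured islet genes did not share one order: insulin, Ins2, read 121, 612 and 321, the hormone Ppy 68.7, 314 and 456, and Iapp 139, 148 and 157. Ins2 was highest in replicate 2 and Ppy in replicate 3, and Iapp was below the level on every array. In the other 9 430A arrays of the series Cpa1 ranged from 5 to 12428, on both sides of the split. The source of this RNA was not tested. Without the acinar and islet lists the correlation of replicate 1 with replicates 2 and 3 was 0.934 and 0.936, still below the 0.972 between those 2 arrays.

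**Figure D4:**
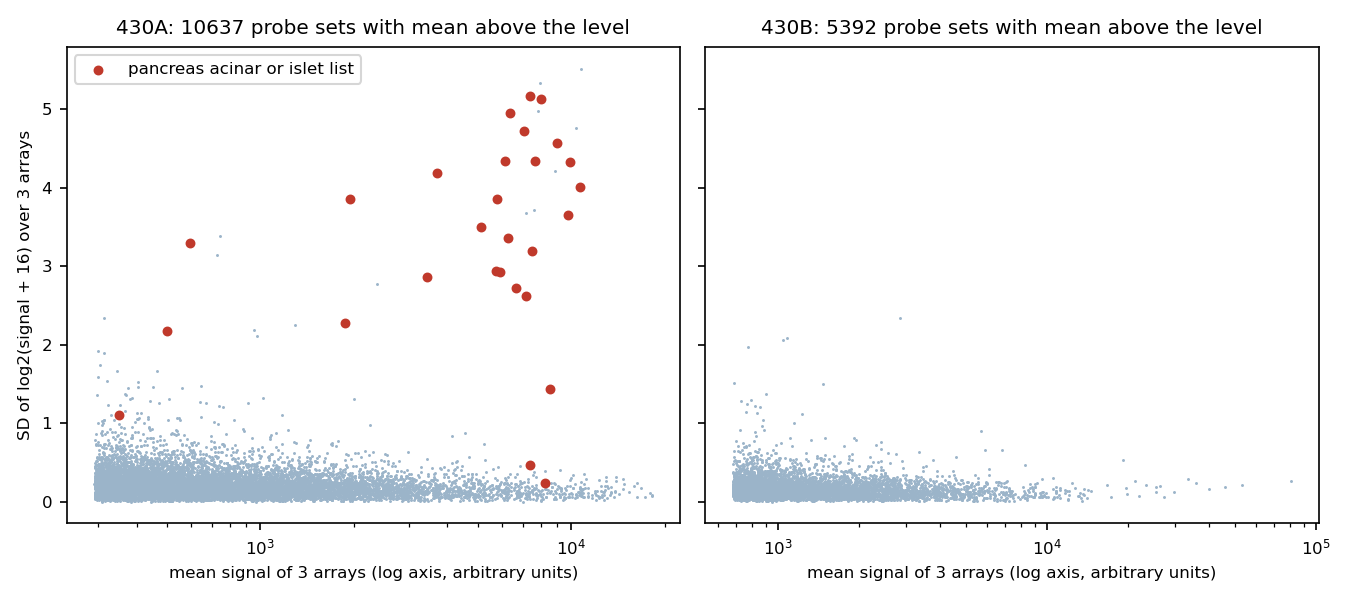
SD of log2(signal + 16) over the 3 arrays against mean signal (log axis) for the 10637 probe sets of 430A and 5392 of 430B with a mean above the background level. Red points mark the pancreas lists, 24 of whose 28 probe sets lie above an SD of 2, where 430B has 3 probe sets in all.

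Another kind of spread followed the sides of the 430A arrays. The counts that follow are of probe sets with a mean above the mean background level of their array type. In 200 probe sets replicate 1 was lower than both others by over 2-fold (on log2(signal + 16)), against 11 and 14 for replicates 2 and 3, and in 20 it was higher, against 7 and 15. On 430B the numbers were 16, 7 and 8 lower and 6, 5 and 5 higher. Of the 200, 26 belonged to the pancreas lists. In 128 of the 200 the other 9 430A arrays of the series were also parted by side without overlap. The sides were read from the signals of these same 12 arrays, so this count describes the split and is no separate evidence of it. Plcb2, a phospholipase of signalling, read 40.5, 490.2 and 384, with 16.4 to 97.4 in the 5 other arrays on the side of replicate 1 and 329 to 559 in the 4 on the other side. Mxd1 on 430A was the reverse at 807, 71.8 and 66.2, with 478.5 to 667 and 50.8 to 97.7. Its 430B probe set gave a high and even signal of 14557, 14051 and 13547. Within this group, replicate 1 and its side cannot be told apart.

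Some clock genes and others differed in replicate 3, although on both array types the counts over 2-fold given above were no larger for it than for replicate 1. The genes of the circadian clock list measured on 430A were not all highest in the same replicate, and signals under the level have no reliable order. Dbp, a transcription factor driven directly by the clock, read 388, 436 and 1915, and Ciart, a repressor of the clock, 353, 396 and 1529.6 on 430B. Per3, a period gene, read 244, 226 and 556 on 430A. In these 3 probe sets replicate 3 was over 2-fold higher than both others. On 430B Per3 read 1602, 1059.5 and 3173, highest in replicate 3 by less than 2-fold over replicate 1. Per2 read 112, 148 and 557 on 430A, also over 2-fold higher in replicate 3, but its mean of 272 lay under the mean level of 293. Per2 on 430B read 826, 409 and 1109, and Per1 on 430A 236, 240.3 and 482, both also highest in replicate 3. Arntl, which encodes BMAL1 and peaks in opposite phase to these, was lowest in replicate 3 on both types, at 327, 543 and 179.5 on 430A and 906, 1053 and 762 on 430B. Nr1d1, a clock repressor, was highest in replicate 1 at 1232, 843 and 832, as was Clock, the partner of BMAL1, at 577, 346 and 364 on 430A, while Clock on 430B read 832, 739 and 781. Bhlhe40, a repressor of the clock, differed less at 1273, 852 and 1382, and the cryptochromes Cry1 at 92, 118 and 133 and Cry2 at 115, 268 and 296 were below the level. Nr1d2 and Tef had the highest means of the list on 430A, at 1801, 1192 and 2736 and at 1382, 1311 and 2385. Both were highest in replicate 3 by less than 2-fold, as was Hlf at 298, 299.7 and 486. Npas2, below the level on each array, was lowest in replicate 3 at 178, 149.9 and 96.2. Clock and Cry2 on 430A were also parted by the sides of the arrays. Of the 15 clock genes of the list 6 were above background, and 8 on either array type.

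Other genes over 2-fold higher in replicate 3 were Tsc22d3 at 499, 365 and 1029 in one of its probe sets, Cebpd at 431, 514 and 1179, Zbtb16 at 822, 924 and 2242 on 430B and the transport protein Ttr at 469, 498 and 1109.5. On 430B Ttr read 1528, 1384 and 2759.8, again highest in replicate 3. The same rule gave as lower, beside S100g, Slc37a2, Slc30a10 and Sprr1a, the mitotic genes Mki67, Birc5 at 643, 694 and 181, Prc1 at 648, 539 and 243 and Nek2 at 955, 956 and 443 on 430B. Among genes with a mean above the level, there were 19 named ones higher and 17 lower in replicate 3 over both array types. These were grouped after their values were seen. The labels used here give no time of day for the dissection, and its part in these values was not tested.

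**Figure D5:**
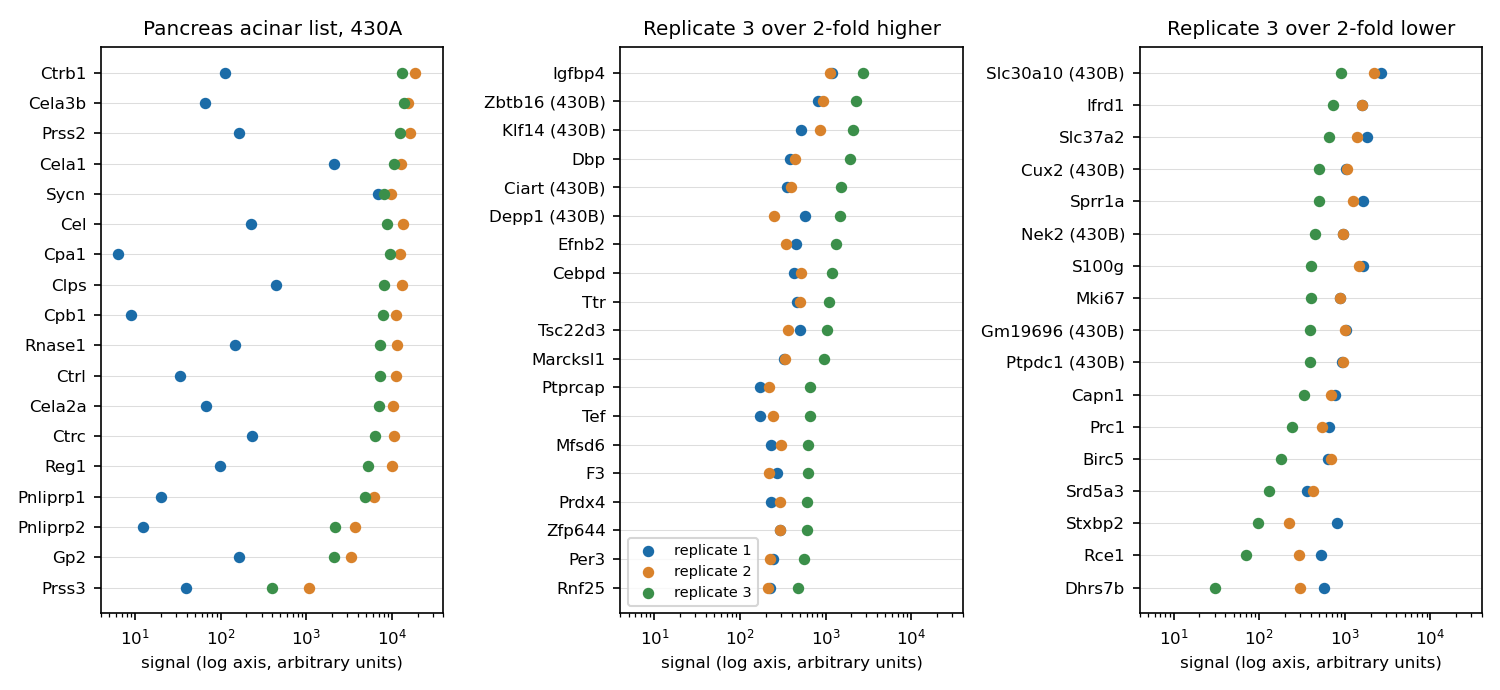
Signal (log axis) in each replicate for the 18 acinar genes on 430A (left) and for the named genes with a mean above the level in which replicate 3 was over 2-fold higher (middle, 19 genes) or lower (right, 17 genes) than both others. Replicate 1 is lowest for all 18 genes of the left panel, and replicate 3 lies apart in the other panels because they were chosen so.

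Whether a gene deviates alike on both array types was examined over 884 genes with a mean above the level on each, with different probe sets and without the pancreas lists. The correlation across genes of the deviation from the gene's mean was 0.06, 0.05 and 0.19 for replicates 1, 2 and 3. Genes are not independent replicates. In the 42 of these genes with an SD over 0.5 on 430A it was -0.02, 0.06 and 0.37. The replicate with the highest signal was the same on both types for 340 of the 884 genes (38.5%) and for 15 of the 42 (35.7%), where unrelated orders would give 1 gene in 3.

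Levels cannot be compared between the array types. The 100 probe sets with the same name on both gave, in the same samples, signals 3.70 times as high on 430B in the median, a log2 difference of 1.89 that ran from 0.79 to 2.50. Their order was largely kept, with a correlation of 0.976 across probe sets and a slope of 1.03. The deviations of the replicates from each probe set's mean correlated between the types at only 0.12. The median SD of the same probe sets was 0.15 on 430A and 0.10 on 430B.

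Set beside the rest of the series, the baseline profile was shared by the treated groups in outline. Of the 100 probe sets with the highest mean in the untreated colon, 85 to 91 were among the 100 highest of each other group on 430A, and likewise 85 to 91 on 430B. The smallest overlap on both types was that with the standard diet and trinitrobenzene sulfonic acid enema. On 430A, however, not all groups had the same number of arrays on each side of the split. Treatment and side were not separated in the overlaps and correlations given here. Across probe sets, the mean log2 signals correlated with those of the other groups at 0.976 to 0.990 for the 430A arrays, while the 430B arrays gave 0.936 to 0.972. The 0.936 was that with the curcumin diet and trinitrobenzene sulfonic acid enema, in which 2 of 3 430B arrays lay at -64.2 and -66.5 on the first principal component of the 430B arrays and the other 10 arrays at 3.21 to 26.9.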

How the data were processed

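Total RNA of whole colon, pooled from 3 mice in a group, was labelled with biotin and measured on Affymetrix 430A and 430B arrays, per the labels' protocols. The deposited values are linear signal intensities per probe set, and the submitters' processing notes name GCOS without a version or settings. In the deposited files the mean of each array without the outer 2% of probe sets at each end is near 500, so values are relative to each array. Batch and genome build are not given in the sources used here.

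Each array type was analysed apart, without AFFX control probe sets, in Python 3.11.15 with numpy 2.4.6 and pandas 2.3.3. A gene was represented by its probe set with the highest mean. Probe sets with several gene symbols or none were not named (691 and 1555 on 430A, 245 and 7605 on 430B). Spread is the SD of log2(signal + 16) over the 3 arrays or the CV of the signal. No test was made, as there is no contrast. The scripts were tested on simulated data.

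The arrays were chosen by their label, and the lists with earlier results of these data known. Named by rule were the 25 highest genes of 430A and 15 of 430B, up to 5 highest members of a list with up to 3 defining members at background, the HOX genes above background, and the genes of largest and smallest spread. Other genes named were chosen after their values were seen. Alternatives changed the background level, the scaling, the pseudocount, the probe sets kept and the arrays. The rule for the printed promoters was chosen after the values were seen.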

Additional observations from a re-analysis of the deposited data

How the results depend on the processing

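The count of probe sets above background depended on the definition of the level and on the probe sets kept. Without the probe sets whose names mark sequence shared between transcripts it was 5394 on 430A instead of 9093. That alternative also lowers the number of probe sets counted, so the fall is not one of the share above background. With the level at the highest bacterial control that was not spiked, an alternative chosen after seeing the data, it was 15445 on 430A and 10577 on 430B. Leaving out a replicate gave 9357 to 9905 on 430A and 4639 to 4929 on 430B. The other alternatives for these counts moved them by less than 1.5 times. Over all probe sets the median SD was 0.249 on 430A and 0.262 on 430B. For the probe sets above background, leaving out a replicate gave a median SD of 0.104 (without replicate 1) to 0.170 for 430A and 0.108 to 0.118 for 430B, where an SD over 2 arrays tends to be smaller. The share of the 100 highest probe sets ran from 8.57% to 8.94% and from 9.95% to 10.3% with a replicate left out. Of 47 lists, the count above background moved by more than 1.5 times for 7 at the 90th percentile, 7 at the 99th, 7 with the median probe set of a gene, 2 with either array type, an alternative also chosen after seeing the data, 3 without replicate 1 and 0 without replicate 2 or 3. No paired analysis was possible because the result comes from 1 group with no comparison. The 430B level rests on 34 probe sets, and signals under the level have no reliable order.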
